A study of Danio rerio with 6 samples.

Results

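Respiratory complex I was followed through 56 of the 31953 genes in the deposited count table, in distal late (DL) segments of the zebrafish kidney and in the rest of that organ. The members were taken by symbol alone: 49 nuclear genes whose symbol starts with nduf, and the 7 complex I genes of the mitochondrial genome (MT-ND1, MT-ND2, MT-ND3, MT-ND4, mt-nd4l, MT-ND5 and MT-ND6). By role they comprised 7 core and 10 accessory genes of the matrix arm, 7 core and 19 accessory genes of the membrane arm, 2 acyl carrier genes, 4 genes of the NDUFA4 family and 7 assembly factors. Of the 56, 51 passed the filter on low counts, 44 of them nuclear and 7 mitochondrial.

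Complex I (NADH dehydrogenase) is the entry point of the mitochondrial respiratory chain. Its matrix arm takes electrons from NADH and hands them through iron-sulfur clusters to ubiquinone, and its membrane arm pumps protons with the energy released. The core of the matrix arm is encoded in the nucleus and the core of the membrane arm in mitochondrial DNA, so the enzyme needs both genomes. In mammals the distal convoluted tubule, which reabsorbs salt through the thiazide-sensitive cotransporter, is rich in mitochondria. The roles given below are known mainly from mammals.

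All 6 libraries came from adult zebrafish carrying the transgene Tg(slc12a3:mCherry), a red reporter driven from the cotransporter gene. The DL group held 3 libraries (genotype label mCh+) of segments dissected by hand, and the rest group held 3 libraries (mCh-) of the mesonephros, the adult kidney, without them. Whether the libraries came from separate fish is not stated, and the p-values therefore reflect only how far these samples vary, which may be technical variation. In zebrafish the mesonephros also holds the blood-forming marrow. In such bulk libraries fewer cells of a type and less RNA per cell cannot be told apart.

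Total counts lay between 9320756 and 22776825 per library. DL replicate 1 and rest replicate 3 stood apart: 1 gene, si:dkey-153m14.1, took 38.3% and 36.9% of their counts, and their scaling factors were 0.52 and 0.53 against 1.14 to 1.80 in the other 4. In those other 4 libraries a different gene took the most counts, 11.9% to 22.2%. Levels are given as CPM, the counts per 1e6 of the TMM-scaled library size, always with replicates 1 to 3 in order. SLC12A3, the reporter's own gene, had 251, 905 and 32.9 CPM in the DL libraries against 41.9, 30.4 and 43.0 CPM in the rest libraries, so the third DL library did not exceed the rest for it. The other 3 distal genes on the check list, slc12a10.3, clcnk and bsnd, were higher in DL replicate 3 than in any rest library. In the DL libraries slc12a10.3 stood at 1269.5, 1721 and 355 CPM, against at most 44.6 CPM in the rest. The margin was narrow for clcnk, with 126, 76.9 and 11.2 CPM against at most 9.497 CPM. For bsnd the values were 22.2, 36.8 and 5.39 CPM against at most 3.196 CPM. For each of these 3 genes the lowest DL library was DL replicate 3. That library also held the highest sum of heat-shock and immediate-early genes, 21858 CPM.

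Complex I transcripts were mostly at higher values in DL, but no single member passed the test. Of the 44 tested nuclear members 40 had a positive log2 fold change (DL minus rest), with a median of 0.84, and all 7 mitochondrial members were positive, with a median of 1.06. Across all 17083 tested genes 46.5% were positive and the median was -0.07. In edgeR's quasi-likelihood test with Benjamini-Hochberg adjustment over all genes, 0 of 51 members were higher and 0 lower, where 0.0644% of all genes were called higher and 0% lower. With an unadjusted edgeR p below 0.05, 2 nuclear members were higher (NDUFS1 and ndufa4b) and 0 lower, against backgrounds of 4.09% and 2.73%, so that share was near the background. DESeq2 called 1 member higher, ndufa4b, and 0 lower, where it called 1.37% of all genes higher and 0.342% lower. By limma-voom 0 members were called, where 0.0351% of all genes were called higher. Of the 4 distal genes on the check list edgeR called 1 higher, DESeq2 4 and limma-voom 1. For SLC12A3 the log2 fold change was 3.37 ± 0.92 (SE), with an edgeR adjusted p of 0.292 and a DESeq2 adjusted p of 0.00156. Standard errors of the nuclear members ranged from 0.50 to 1.81 on the log2 scale, and 20 of the 44 fold changes were smaller than their own standard error.

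The summed level of the 49 nuclear members was 582, 968 and 347 CPM in the DL libraries against 490, 254 and 270 CPM in the others. DL replicates 1 and 2 were the highest libraries, but DL replicate 3 lay below rest replicate 1, so the groups overlapped. The DL mean was 632 ± 314 CPM and the rest mean 338 ± 132 CPM (± SD, n = 3 per group). The 7 mitochondrial genes summed to 9383, 44133 and 29815 CPM in DL and to 23487, 11594 and 11857 CPM in the rest. Here DL replicates 2 and 3 were the highest libraries and DL replicate 1 the lowest. The members of the 2 genomes thus ordered the DL libraries differently.

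**Figure D1:**
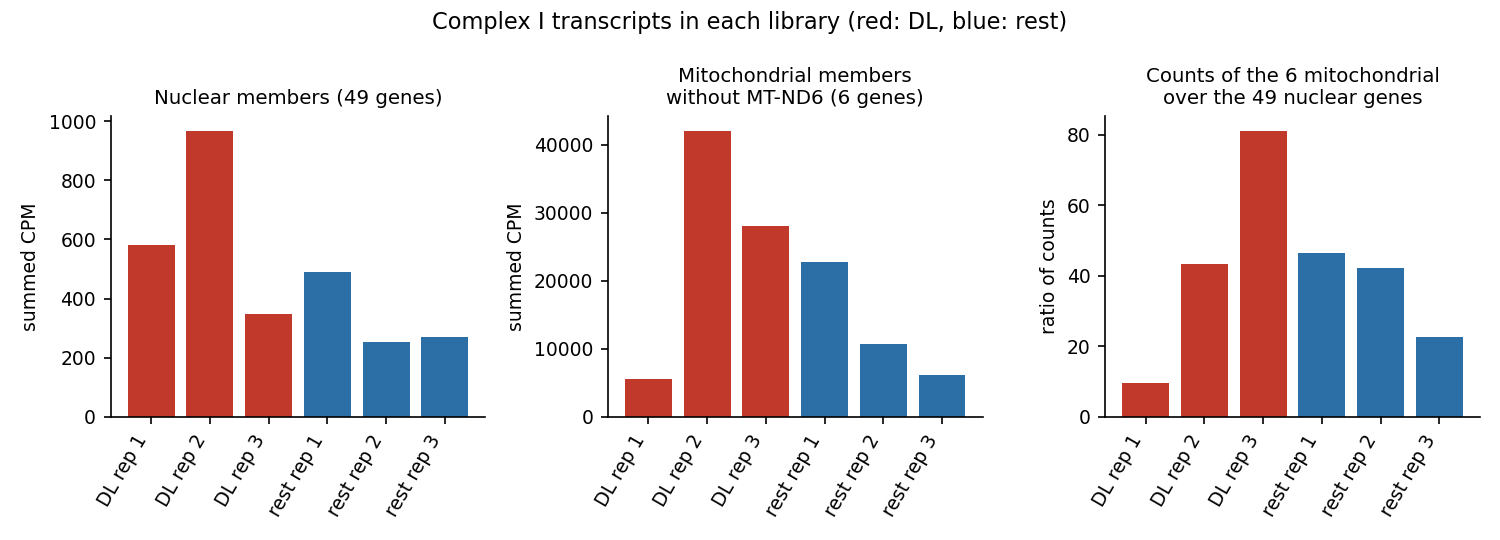
Bars give, for each library, the summed CPM of the 49 nuclear members (left), the summed CPM of the mitochondrial members other than MT-ND6 (middle) and the ratio of the counts of these 6 genes to those of the nuclear members (right). DL replicate 1 is second highest for nuclear members (582 CPM) and lowest for mitochondrial ones (5580 CPM), and the ratio runs from 9.59 in DL replicate 1 to 81.1 in DL replicate 3.

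Single DL libraries carried the nuclear values unevenly. DL replicate 2 exceeded every rest library for 36 of the 44 tested nuclear members and DL replicate 1 for 25, where the share over all tested genes was 26.2% and 26%. DL replicate 3 did so for 4 of 44, against 22.7% of all genes. DL replicate 2 was the highest library for 28 of the 44 (16.6% of all genes) and rest replicate 3 the lowest for 21 (21.2% of all genes). Among the 51 members NDUFS6 alone showed no overlap with DL above, where 6.81% of all genes did, and 0 showed none with DL below, where 6.26% did. Leaving out DL replicate 2 took the nuclear median from 0.84 to 0.42 and the mitochondrial median from 1.06 to 0.48. Leaving out rest replicate 1 raised them to 1.24 and 1.70. With DL replicate 1 and rest replicate 3 both left out they were 0.70 and 1.25.

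**Figure D2:**
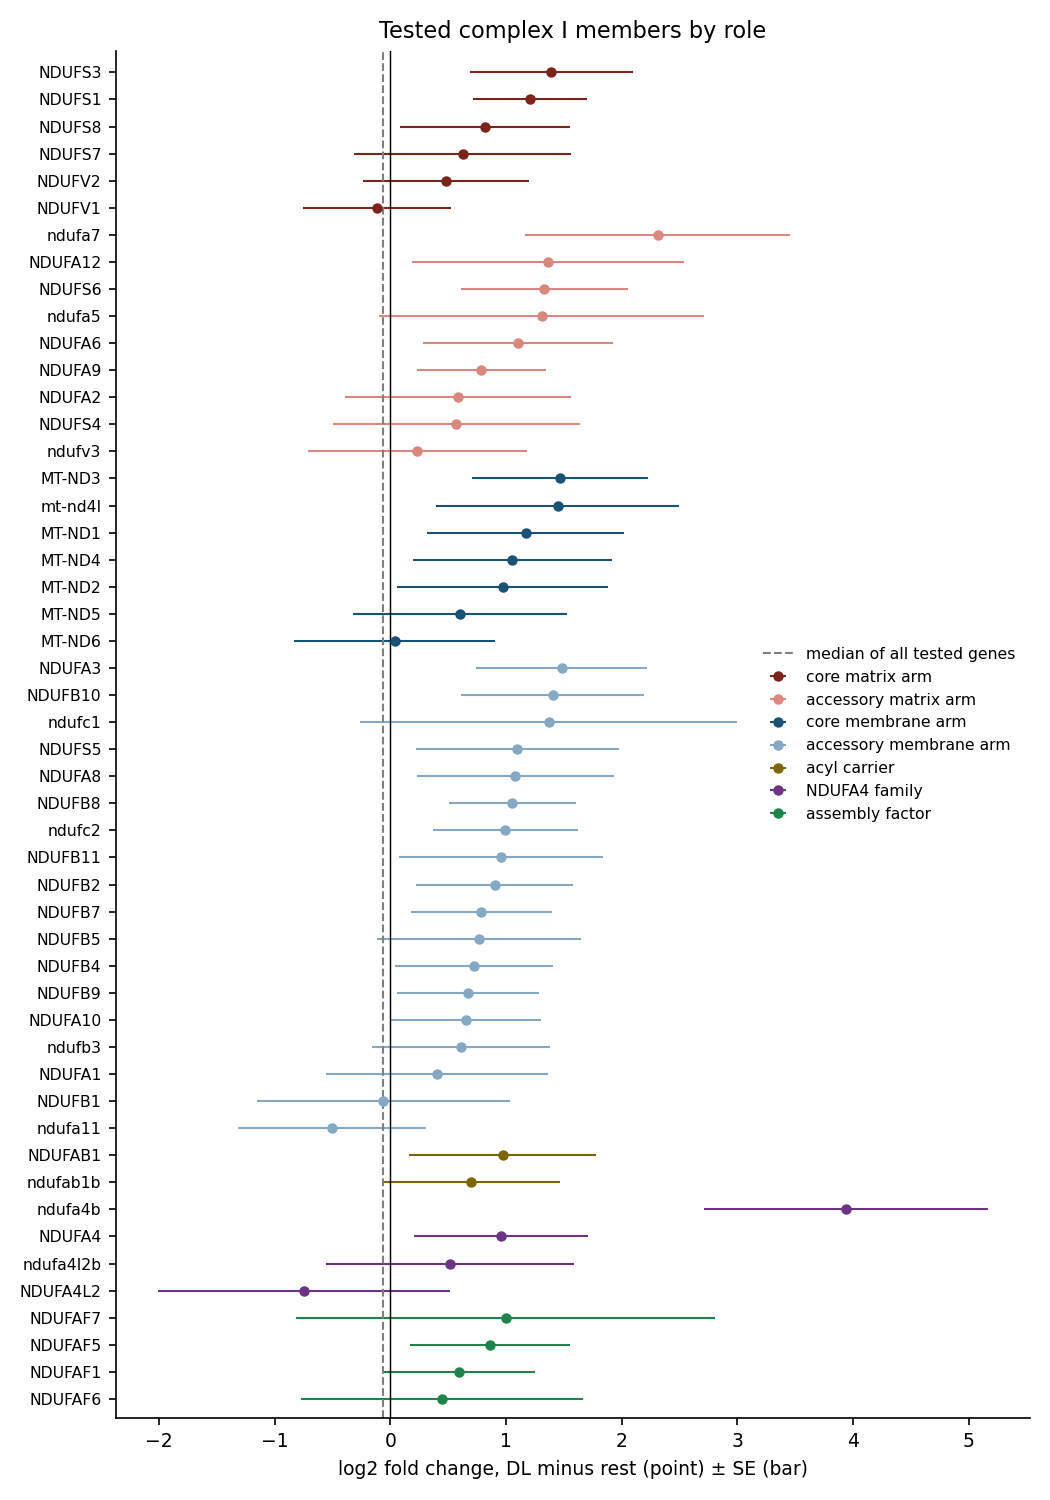
Points give the log2 fold change (DL minus rest) of each tested member reported here and bars its SE, ordered by role, with the dashed line at the median of all tested genes (-0.07). Most points lie to the right of 0 with bars that reach or approach it, ndufa4b lies farthest right at 3.94, and NDUFA4L2 farthest left at -0.75.

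Of the 7 core genes of the matrix arm 6 had positive and 1 negative fold changes, with a median of 0.82. NDUFS1, which carries iron-sulfur clusters near the NADH site and drew the most reads of any nuclear member, stood at 94.2, 95.7 and 35.4 CPM in DL and at 34.6, 22.1 and 41.0 CPM in the rest. DL replicates 1 and 2 were above every rest library, whereas DL replicate 3 lay within the rest range. Its log2 fold change was 1.21 ± 0.50 (SE), with an edgeR adjusted p of 0.642. The DESeq2 adjusted p was 0.409 with all libraries and 0.0466 without DL replicate 3, the library within the rest range, and DESeq2 did not call it when any other single library was left out.

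NDUFS3, a scaffold subunit of the arm that leads to ubiquinone, stood at 11.9, 35.0 and 7.75 CPM against 12.1, 4.39 and 4.24 CPM, with a log2 fold change of 1.39 ± 0.70 (edgeR adjusted p = 0.795). It was highest in DL replicate 2, and rest replicate 1 reached into the DL range. NDUFS8, which holds the clusters that lead to ubiquinone, stood at 4.72, 19.4 and 12.9 CPM against 9.49, 9.31 and 2.04 CPM. In that gene DL replicate 1 lay below 2 rest libraries, and the log2 fold change was 0.82 ± 0.73. NDUFS7, which carries the last cluster before ubiquinone, stood at 10.7, 5.37 and 0.945 CPM against 1.77, 4.39 and 4.91 CPM, with DL replicates 1 and 3 at the extremes and a log2 fold change of 0.62 ± 0.94.

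In edgeR the subunits that receive electrons from NADH had the smallest fold changes of the matrix-arm core. By limma-voom the log2 fold change of NDUFS7 (0.06) lay below that of NDUFV2 (0.25), and the ranking was not tested. NDUFV1, which binds NADH and the flavin, stood at 50.9, 19.0 and 10.8 CPM in DL and at 15.7, 21.2 and 50.6 CPM in the rest. It was high in DL replicate 1 and rest replicate 3, the libraries with low scaling factors, and low in the other 4. Its log2 fold change was -0.12 ± 0.64, and turned positive when any of DL replicate 2, DL replicate 3 or rest replicate 3 was left out. NDUFA8, an accessory subunit of the membrane arm, was also highest in those libraries, with 17.2 CPM in DL replicate 1 and 9.66 CPM in rest replicate 3. It had 1.35 to 5.77 CPM in the other 4, where, unlike for NDUFV1, DL replicates 2 and 3 lay above rest replicates 1 and 2. Its log2 fold change was 1.08 ± 0.85, so NDUFV1 and NDUFA8 shared only their 2 highest libraries. These were the only 2 of 44 nuclear members above all others in both of those libraries, where 8.19% of all tested genes were. NDUFV2, the partner of NDUFV1, stood at 11.9, 10.2 and 3.22 CPM against 9.56, 4.77 and 3.73 CPM, with a log2 fold change of 0.48 ± 0.72.

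Accessory genes of the matrix arm, which surround the core and stabilize it, were all positive among the 9 tested, with a median of 1.1. NDUFS6, a zinc-binding subunit, stood at 5.0, 10.7 and 9.27 CPM in DL and at 4.32, 1.90 and 3.73 CPM in the rest. The groups did not overlap, although DL replicate 1 exceeded rest replicate 1 by little, and the log2 fold change was 1.33 ± 0.72 (edgeR adjusted p = 0.830). The gene ndufa7 stood at 0.556, 15.5 and 3.31 CPM against 1.28, 1.90 and 0.678 CPM. DL replicate 1 was the lowest of the 6 libraries there and DL replicate 2 the highest, with a log2 fold change of 2.31 ± 1.15 (edgeR adjusted p = 0.786). Without DL replicate 2 it was 0.59. NDUFA9, which lies beside the ubiquinone pocket, stood at 16.8, 25.8 and 9.20 CPM against 13.1, 8.27 and 8.58 CPM, a log2 fold change of 0.79 ± 0.56. NDUFA6, a LYR-motif protein that anchors an acyl carrier to the complex, stood at 6.93, 8.90 and 3.88 CPM against 5.11, 2.78 and 1.22 CPM, a log2 fold change of 1.1 ± 0.82. In both genes DL replicates 1 and 2 were the highest libraries. All 6 counts of each were fractional, so reads were divided between genes and their values are uncertain. NDUFA12 stood at 4.38, 31.2 and 6.97 CPM against 12.2, 4.04 and 0 CPM, with a log2 fold change of 1.36 ± 1.17. In that gene rest replicate 1 lay above DL replicates 1 and 3. Of the 6 counts of NDUFA12 5 were fractional, so its values are uncertain in the same way.

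Among the 18 tested accessory genes of the membrane arm 16 were positive and 2 negative, with a median of 0.84. NDUFA3 had the largest fold change of them, at 15.5, 24.5 and 4.92 CPM in DL against 9.71, 3.53 and 2.71 CPM in the rest (log2 1.48 ± 0.74). NDUFB10 stood at 18.1, 25.3 and 6.81 CPM against 6.82, 1.19 and 11.2 CPM (log2 1.40 ± 0.79). In each, DL replicates 1 and 2 lay above the rest and DL replicate 3 within it. NDUFB8 stood at 27.7, 35.2 and 15.8 CPM against 20.4, 9.48 and 7.79 CPM (log2 1.06 ± 0.55), and ndufc2 at 12.9, 16.4 and 7.19 CPM against 8.92, 3.47 and 5.93 CPM (log2 0.99 ± 0.63). For these 4 genes the edgeR adjusted p ran from 0.787 to 0.901. The 2 negative ones were ndufa11, with 2.84 to 4.01 CPM in DL and 2.71 to 6.27 CPM in the rest (log2 -0.50 ± 0.81), and NDUFB1, with 1.32 to 2.93 CPM and 1.36 to 3.25 CPM (log2 -0.06 ± 1.09). Values of NDUFB1 changed sign with the thinned counts and in 3 of the fits that left out a library. NDUFAB1 and ndufab1b, copies of the acyl carrier protein that also serves fatty acid synthesis in mitochondria, had log2 fold changes of 0.97 ± 0.81 and 0.70 ± 0.77.

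**Figure D3:**
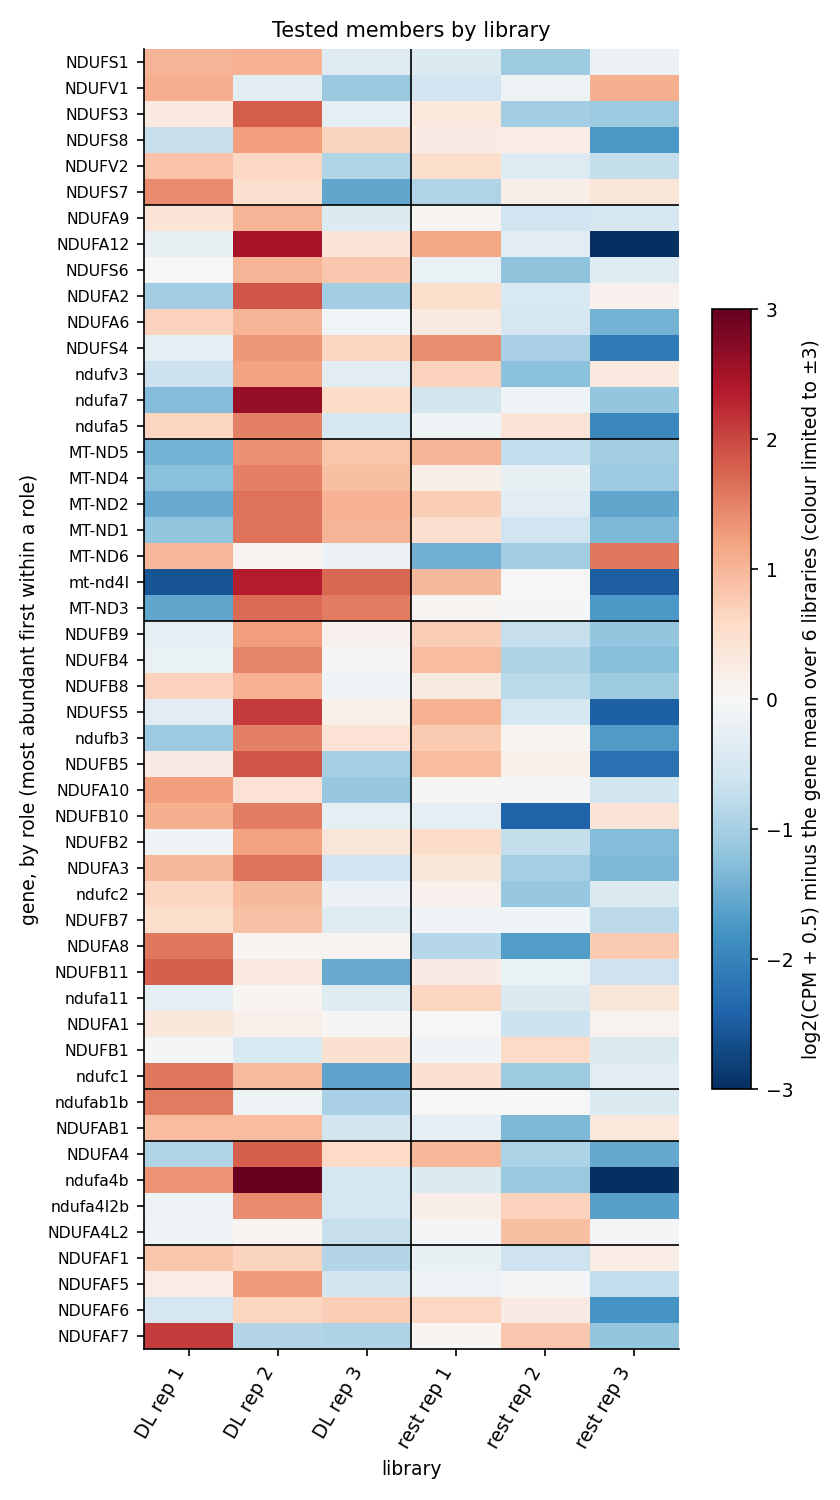
Colours give log2(CPM + 0.5) of each tested member reported here, in each library, minus that gene's mean over the 6 libraries, with genes grouped by role between the horizontal lines. The column of DL replicate 2 is red for most genes, DL replicate 3 is pale or blue for most nuclear genes and red for 6 of 7 mitochondrial ones, and MT-ND6 and NDUFV1 are red in DL replicate 1 and rest replicate 3.

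Of the mitochondrially encoded core, 6 genes shared a pattern. MT-ND1, which closes the ubiquinone pocket, stood at 1091, 7582 and 4983 CPM in DL and at 3473, 1631 and 965 CPM in the rest. MT-ND2, an antiporter-like proton-pumping subunit, stood at 956, 8508 and 5618 CPM against 4578, 2181 and 931 CPM. MT-ND4, another of that kind, stood at 1767, 11967 and 7876 CPM against 4791, 3633 and 1976 CPM. In all of these DL replicates 2 and 3 were the highest libraries, while DL replicate 1 was as low as rest replicate 3. MT-ND5, the outermost pumping subunit, stood at 1645, 11385 and 7836 CPM against 8958, 2654 and 2142 CPM. There rest replicate 1 lay above DL replicate 3, and the log2 fold change was the smallest of the 6, at 0.60 ± 0.92. MT-ND3, whose loop lies at the ubiquinone site, stood at 52.1, 499 and 445 CPM against 162, 151 and 46.6 CPM. The small subunit mt-nd4l stood at 68.6, 2145 and 1368 CPM against 816, 422 and 74.2 CPM. The log2 fold changes were 1.17 ± 0.85 for MT-ND1, 0.97 ± 0.91 for MT-ND2, 1.47 ± 0.76 for MT-ND3, 1.06 ± 0.86 for MT-ND4 and 1.45 ± 1.05 for mt-nd4l. Their edgeR adjusted p ran from 0.804 to 0.991. All 6 were below every other library in both DL replicate 1 and rest replicate 3, as were 4 of 44 nuclear members and 10.2% of all tested genes.

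MT-ND6 differed from the other 6 genes in DL replicate 1 and rest replicate 3. It is the only protein gene on the light strand of vertebrate mitochondrial DNA, and no strand setting of the counting is given, so reads of either strand cannot be told apart there. It stood at 3803, 2047 and 1688 CPM in DL and at 709, 921 and 5723 CPM in the rest, highest in the 2 libraries where the other 6 were lowest. Apart from those libraries, MT-ND6 was higher in DL replicates 2 and 3 than in rest replicates 1 and 2. Its share of the counts of the 7 genes was 40.5% in DL replicate 1 (95% Wilson interval 40.2% to 40.9%) and 48.3% in rest replicate 3 (47.9% to 48.6%). In DL replicates 2 and 3 and rest replicates 1 and 2 the share was 4.64% (4.6% to 4.68%), 5.66% (5.58% to 5.74%), 3.02% (2.98% to 3.06%) and 7.95% (7.83% to 8.06%). These intervals cover counting error only. The difference thus followed the 2 libraries with low scaling factors and not the groups. The log2 fold change of MT-ND6 was 0.04 ± 0.87 with all libraries and ranged from -0.39 without rest replicate 1 to 1.64 without rest replicate 3.

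**Figure D4:**
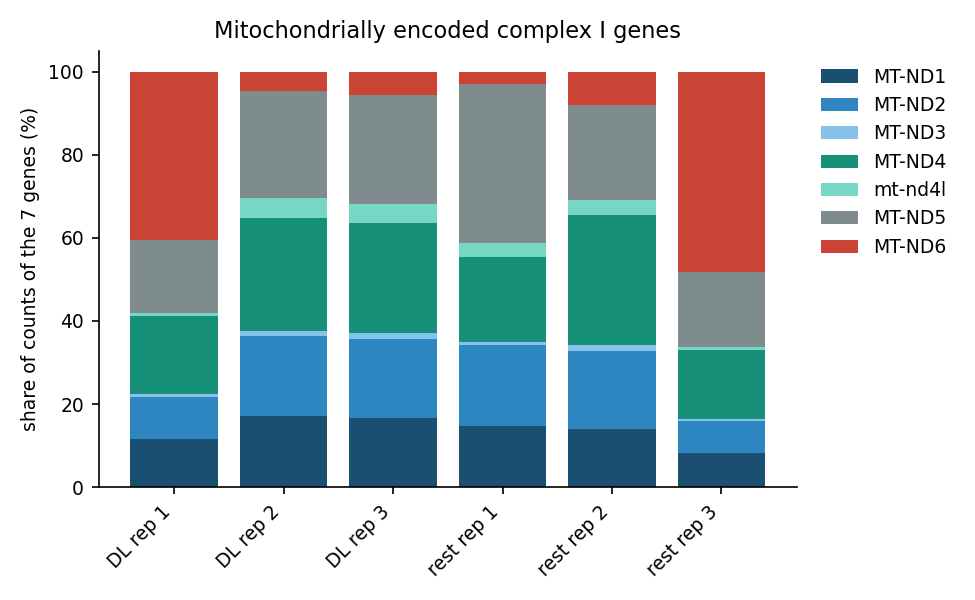
Stacked bars give the share of counts (%) that each of the 7 mitochondrially encoded complex I genes took within their sum, per library. MT-ND6 takes 40.5% in DL replicate 1 and 48.3% in rest replicate 3, and 3.02% to 7.95% in the other 4.

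The ratio of mitochondrial to nuclear complex I counts varied most within DL. With all mitochondrial members it was 16.1, 45.6 and 86.0 in the DL libraries against 48.0, 45.7 and 44.0 in the rest libraries. Without MT-ND6 it was 9.59, 43.5 and 81.1 in the DL libraries against 46.5, 42.1 and 22.8 in the rest libraries. DL held both the lowest and the highest library, and the rest lay between. The 13 protein genes of the mitochondrial genome together took 2.03% and 2.55% of all counts in DL replicate 1 and rest replicate 3 and 8.58% to 18.1% in the other 4.

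In the NDUFA4 family, whose first member was described with complex I and is now placed in complex IV, the pair NDUFA4 and ndufa4b behaved differently. NDUFA4 stood at 14.6, 95.8 and 42.0 CPM in DL and at 55.0, 14.1 and 9.15 CPM in the rest, with overlapping groups and a log2 fold change of 0.96 ± 0.76. The copy ndufa4b stood at 9.86, 52.3 and 2.31 CPM in DL and at 2.54, 1.36 and 0 CPM in the rest. DL replicates 1 and 2 were above every rest library, and DL replicate 3 lay within the rest range, as for SLC12A3. That order was not particular to ndufa4b. Among other members, NDUFS1, NDUFA3, NDUFB10, NDUFA6, NDUFA9, NDUFB8, ndufc2, NDUFAB1 and NDUFAF5 also had it. The distal genes slc12a10.3, clcnk and bsnd did not. The log2 fold change of ndufa4b was 3.94 ± 1.23, the largest among the tested members. Its edgeR adjusted p was 0.412 and its DESeq2 adjusted p 0.0108. DESeq2 made that call with all libraries, without DL replicate 3 (adjusted p = 0.00428) and without rest replicate 1 (0.00999). It made none without DL replicate 2 (0.84), DL replicate 1 (0.0546), rest replicate 2 (0.12) or rest replicate 3 (0.0624).

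Set against its paralog, ndufa4b took 40.3% of their joint counts in DL replicate 1 (95% Wilson interval 33.4% to 47.7%) and 35.3% in DL replicate 2 (33.8% to 36.8%). In DL replicate 3 it took 5.21% (3.47% to 7.52%). In rest replicates 1 and 2 the share was 4.42% (3.6% to 5.46%) and 8.81% (6.01% to 12.6%). In rest replicate 3 it was 0 of 54 counts (0% to 6.64%). These intervals cover counting error only. The pair was singled out after its values were seen, and the shares are given without a test. NDUFA4L2 and ndufa4l2b, relatives of a gene induced by low oxygen in mammals, stood at 0.619 to 1.36 CPM and 1.56 to 7.21 CPM in DL and at 1.21 to 2.84 CPM and 0.442 to 4.16 CPM in the rest. Their log2 fold changes were -0.75 ± 1.27 and 0.52 ± 1.07, and all 6 counts of each were fractional, as were 4 of the 6 of ndufa4b, so reads were divided between genes and their separate values are uncertain.

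**Figure D5:**
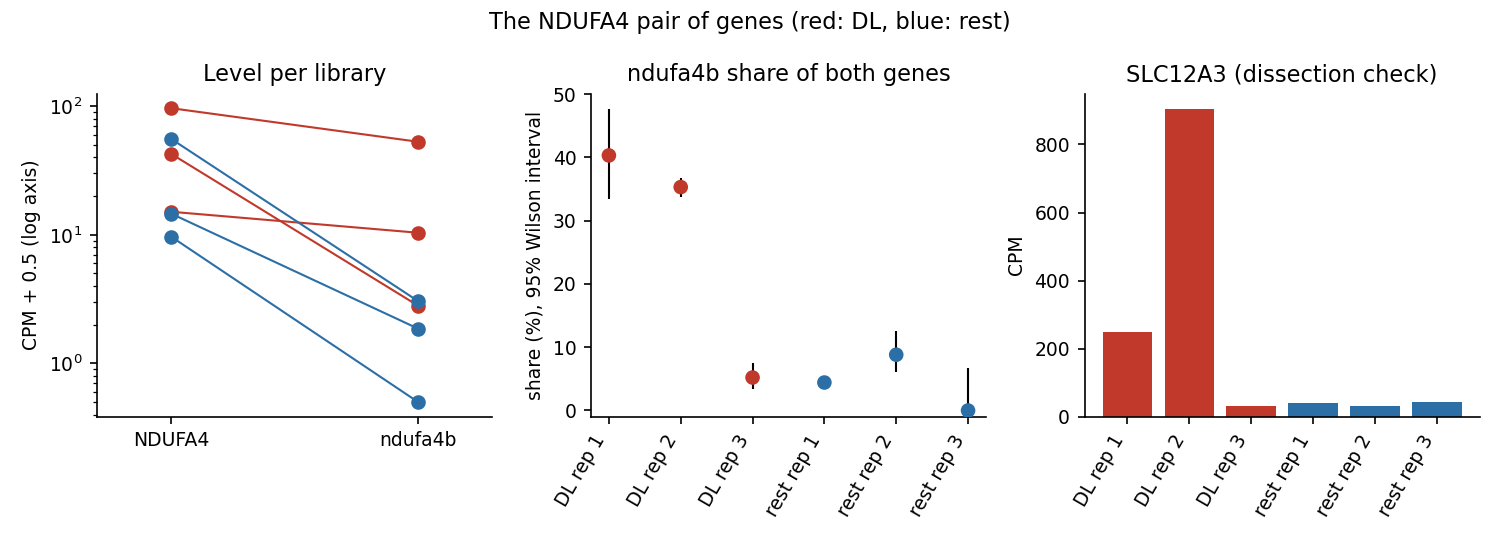
Left, CPM + 0.5 on a log axis of NDUFA4 and its copy ndufa4b, joined per library; middle, the share of ndufa4b in the counts of both with 95% Wilson intervals; right, CPM of SLC12A3, all with DL libraries in red and rest libraries in blue. The share is 40.3% and 35.3% in DL replicates 1 and 2 and at most 8.81% in the other 4, and the same 2 libraries are the highest for SLC12A3.

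Of the 7 assembly factors, which build the complex and are not part of it, 4 were tested and all were positive, with a median of 0.73. NDUFAF1, a chaperone of the membrane arm, stood at 14.6, 13 and 4.07 CPM in DL against 6.73, 4.98 and 9.37 CPM in the rest (log2 0.59 ± 0.66). NDUFAF5, which modifies NDUFS7, stood at 7.78, 16.8 and 4.35 CPM against 5.87, 6.28 and 3.73 CPM (log2 0.86 ± 0.69). Both were highest in DL replicates 1 and 2. NDUFAF6 stood at 1.11, 3.10 and 3.31 CPM against 3.04, 2.22 and 0.169 CPM (log2 0.45 ± 1.22). NDUFAF7, a methyltransferase of the matrix, stood at 4.31, 0.113 and 0.0946 CPM against 0.670, 1.46 and 0 CPM. Its positive fold change (log2 1.0 ± 1.81) came with DL replicate 1 and was -2.69 without it. The other 3 factors did not pass the filter: NDUFAF2 had at most 13.1 counts in any library, NDUFAF4 at most 63 and NDUFAF8 at most 20. NDUFB6, an accessory subunit with at most 12 counts, and ndufa9b, annotated as a pseudogene in the RefSeq annotation of GRCz12tu and at most 0.72 counts, also stayed out.

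Of 9 tested assembly factor genes without the nduf prefix 8 were positive and 1 negative, with a median of 0.40, and 0 passed in edgeR, DESeq2 or limma-voom or had an unadjusted p under 0.05 in edgeR. ACAD9, an acyl-CoA dehydrogenase relative that works with NDUFAF1, stood at 6.11, 25.3 and 6.43 CPM against 8.01, 9.48 and 7.79 CPM (log2 0.59 ± 0.66). ECSIT, its partner, stood at 4.31, 3.27 and 2.74 CPM against 11.4, 1.3 and 4.91 CPM (log2 -0.78 ± 0.89). In both ACAD9 and ECSIT the groups overlapped. Of the 9 genes 1, COA1, showed no overlap with DL above, where 6.81% of all genes did.

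The other respiratory complexes had medians in the same range as the nuclear complex I members (0.84): 0.71 for 8 tested genes of complex II, 0.75 for 14 of complex III, 1.07 for 18 of complex IV and 0.94 for 14 of complex V. No test was made between complexes. The lists were also not alike: those for complexes II and III included assembly factors such as SDHAF2 and BCS1L, and those for complexes IV and V held mainly subunit genes. In edgeR 0 genes of these complexes passed. With an unadjusted edgeR p below 0.05, 1 gene of complex II, 1 of complex III, 6 of complex IV and 3 of complex V were higher and 0 lower, where 4.09% of all genes were higher. DESeq2 called 3 genes, all of complex IV, where it called 1.37% of all genes higher. They were COX6A1 (edgeR log2 2.53 ± 0.65, DESeq2 adjusted p = 0.00656), cox4i1l (2.61 ± 0.64, 0.00721) and COX7C (2.42 ± 0.67, 0.032). Their edgeR adjusted p ran from 0.219 to 0.296. In each the groups did not overlap with DL above. That held for 4 of 18 tested genes of complex IV, where 6.81% of all genes did so. It also held for 1 of 8 in complex II, 1 of 14 in complex III and 1 of 14 in complex V. A separate gene with the same symbol as COX6A1, spelled cox6a1, had overlapping groups. Its edgeR log2 fold change was 0.23 ± 0.99 (DESeq2 adjusted p = 0.999). The 6 other mitochondrially encoded protein genes were all positive (median 0.88). For 12 tested genes of the outer membrane and protein import the median was 0.10, with 7 positive and 5 negative. Of 14 genes listed for mitochondrial transcription and biogenesis 8 were positive and 6 negative (median 0.48). Of these 0 were called by edgeR and 2 by DESeq2, against the same 1.37% of all genes. In 2 of the 14 the groups did not overlap with DL above (6.81% of all genes). In 1, TWNK, they did not overlap with DL below (6.26% of all genes), with a log2 fold change of -2.38 ± 1.47 (edgeR adjusted p = 0.893). The 2 called by DESeq2 were esrrb and PPARGC1A, a nuclear receptor and a coactivator of genes for respiration. The edgeR log2 fold change of esrrb was 4.35 ± 0.73 (edgeR adjusted p = 0.0675, DESeq2 adjusted p = 2.61e-07). That of PPARGC1A was 2.18 ± 0.59 (edgeR adjusted p = 0.291, DESeq2 adjusted p = 0.0279).

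Markers of other cell types also differed in sign between the groups, mostly toward lower values in DL. All 15 stromal genes were negative, with sums of 429 to 2676 CPM in DL and 1813 to 4488 CPM in the rest. Of 15 tested neutrophil and macrophage genes 11 were negative (88.5 to 623 CPM against 184 to 1604 CPM). Proximal tubule genes, from another nephron part that is rich in mitochondria, were negative in 20 of 25 tested, at 1130 to 1380 CPM against 1108 to 2294 CPM. Podocyte genes were negative in 8 of 9 (284 to 459 CPM against 434 to 688 CPM) and endothelial genes in 7 of 8 (221 to 713 CPM against 517 to 613 CPM). Erythroid genes were negative in 5 of 7 tested (41.4 to 734 CPM against 113 to 636 CPM), and lymphoid genes in 5 of 6 (5.31 to 154 CPM against 90.6 to 291 CPM), with RAG1 and cd8a at 0 in DL and cd4-1 and lck at 0 in the rest. Of multiciliated genes 5 of 6 were positive (112 to 148 CPM against 43.0 to 108 CPM), with gmnc and 1 of the DNAI1 genes at 0 in DL. All 15 cell cycle genes were negative (149 to 178 CPM against 142 to 531 CPM). Of 15 tested heat-shock and immediate-early genes 11 were positive. They summed to 2750, 4094 and 21858 CPM in DL and 4992 to 11688 CPM in the rest. The DL library with the highest sum, replicate 3, had the lowest nuclear complex I sum of its group. In the rest group the order differed: replicate 2 had the lowest value of both sums (4992 and 254 CPM). The part of these markers in the complex I values was not tested.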

How the data were processed

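The library kit was NuGEN's Ovation Single Cell system, per the labels' protocols. The authors deposited 1 table of expected counts (estimated, in part fractional, at most 4 significant digits) for 31953 Ensembl genes; the sources used here name no aligner, counter, strand setting or genome build (not given). Ensembl identifiers were given symbols from a separate name table (26121 matched); many are spelled as the human gene. Counts were rounded and filtered with filterByExpr, which left 17083 genes. DL and rest were compared with TMM scaling and edgeR 4.0.16's robust quasi-likelihood test (R 4.3.3), Benjamini-Hochberg adjusted at 0.05 over all genes. Each SE was derived as |log2 fold change| divided by √F. DESeq2 1.42.0, limma-voom 3.58.1, other scalings and filters, thinning and left-out libraries were alternatives.

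Replicate numbers follow the order of deposition. Members and gene lists were chosen with earlier results of these data known, so no list was tested as a set. Named genes are the core subunits (1 is counted but not reported here), assembly factors and NDUFA4 genes, and the accessory subunits with the 8 smallest p per direction; NDUFA12, NDUFA8 and the acyl carrier genes were added after their values were seen. DESeq2 without each library was also added then. Simulated data for this comparison (17083 genes) served as a check: of 50 altered genes per size, the test called 8 that differed 4-fold, 35 that differed 8-fold, 49 that differed 16-fold and 50 that differed 32-fold. It also called 9 genes left unaltered. The altered genes were drawn only from the more abundant genes, and no change below 4-fold was simulated. The check therefore does not show how often smaller changes, or changes in members with few reads, would be called.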

Additional observations from a re-analysis of the deposited data

How the results depend on the processing

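The count of complex I members called by edgeR was 0 in both directions under every scaling, filter and left-out library tried, and limma-voom called 0; DESeq2 called 1 higher, 2 without DL replicate 3, 1 without rest replicate 1 and 0 without any other library. The medians and the summed levels kept a positive sign in every setting. With 1 library left out, the nuclear median ranged from 0.42 to 1.24 and the mitochondrial median from 0.48 to 1.70. Scaled by library size alone, the median of all genes moved from -0.07 to -0.50, the nuclear median was 0.29 with 30 of 44 members positive, and relative to all genes the nuclear median was 0.79 against 0.91 with TMM. The number of all genes called higher, 11 with edgeR, was 233 by DESeq2 (58 lower), 6 by limma-voom, 1 with library size only and 99 without a low-count filter (7 lower). It was 0 to 51 with 1 library left out (0 to 2 lower) and 0 without the pair DL replicate 1 and rest replicate 3. No paired analysis was made, because the labels give the groups no shared replicate numbers and do not state whether libraries adjacent in deposition order belong together.

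Among 33 named genes, 8 changed sign in some setting, none of them called. With library size only, log2 fold changes were -0.28 for NDUFV2, -0.17 for NDUFAF6, -0.46 for NDUFAF7 and -0.053 for ndufa4l2b. NDUFAF7 was -1.04 by limma-voom, MT-ND6 -0.018 with the upper quartile and NDUFB1 0.13 after thinning. Without the pair of libraries NDUFV2 was -0.070 and NDUFAF7 -3.25. With 1 library left out, MT-ND6 ranged from -0.39 to 1.64, NDUFS7 from -0.15 to 1.17, NDUFAF7 from -2.69 to 1.99, NDUFB1 from -0.37 to 0.37, NDUFV1 from -0.90 to 0.55, ndufa4l2b from -0.49 to 1.08, and NDUFAF6 from -0.044 to 1.03, and NDUFV2 stayed positive (0.20 to 0.99). The cause of these changes was not tested. In rest replicate 3, 19 of 56 members had under 10 counts, against 2 to 10 in the other 5 libraries, so low counts limit its values most.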
